A study of Mus musculus with 12 samples.

Results

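The transient receptor potential (TRP) channels described here are 10 genes, Trpv1, Trpv2, Trpv4, Trpm2, Trpm3, Trpm4, Trpm7, Trpc1, Trpc4 and Trpa1, chosen by symbol because they are temperature-sensitive channels or relatives of such channels. All 10 were listed among the 25239 gene symbols of the deposited count table. The libraries came from brain and liver of male wild-type C57BL6/J mice aged 24 months, with 3 libraries per treatment and tissue and 12 libraries in all. The heat stress (HS) mice were kept at 40 °C and 60% relative humidity for 3 hours a day over 15 days, while the control (CO) mice were not heat-stressed, and the temperature at which they were held is not given in the sources used here. Each library was made from a small piece of frozen tissue, and for brain the sources used here do not say which region the piece came from. The study's methods give 3 animals per group, the labels name no animal for a library, and the p-values measure the spread between these libraries.

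TRP channels are cation channels built from subunits with a shared membrane core, and several open in a temperature range of their own when expressed in cells. Trpv1 and Trpa1, best known from sensory neurons, respond to noxious heat and capsaicin and to irritants respectively. Trpv2, Trpv4, Trpm2 and Trpm3 are opened by warmth or heat under some conditions, and Trpm4 is a calcium-activated channel whose activity rises with temperature. Trpm7 joins a magnesium-permeable channel to a protein kinase, and Trpc1 and Trpc4 are channels that open downstream of phospholipase C and are not known mainly as thermosensors. In brain, Trpm3 and Trpv4 are abundant in the choroid plexus, the epithelium that makes cerebrospinal fluid, and Trpm2 and Trpv2 are found in microglia and macrophages as well as in neurons.

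Messenger RNA was measured by sequencing of stranded libraries, with between 10466198 and 15609040 counts in each library. CPM is the count relative to a library's total in units of 1e6 counts, with the totals scaled by TMM, a normalization computed within each tissue. A gene with no count in a library could still hold up to 0.192 CPM in the deepest and up to 0.287 CPM in the shallowest, taking 3 counts as the floor, which covers counting error only. HS was compared with CO by edgeR's quasi-likelihood test fitted to all genes with enough counts, 14806 in brain and 12296 in liver, and the adjusted p-values are Benjamini-Hochberg values over all of them. Libraries differed in other ways. Skeletal muscle markers summed to 447 CPM in liver CO replicate 1 and to 2388 CPM in liver HS replicate 2, against 1.21 to 7.57 CPM in the other 4 liver libraries, and liver CO replicate 1 also held 132 counts of the neuronal gene Snap25, which had 0 to 14 in the others. The tissue labels held otherwise, with Alb, the albumin gene, at 618111 to 1344219 counts in liver and at 7 to 107 in brain.

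In brain, 8 of the 10 channels had enough counts to be tested and none had an adjusted p-value under 0.05 in edgeR's test, where 0% of all 14806 genes passed. DESeq2 on the same libraries called 540 genes, 4.66% of the 11597 with an adjusted value, and 0 of the 8 channels, with no adjusted value for Trpv4. The log2 fold change was negative for 7 of the 8, as it was for 7448 of all 14806 genes. The signs come from shared libraries and are not independent. The median was -0.19 against -0.0030 over all genes tested. At an unadjusted p-value under 0.05 there was 1 channel, Trpv4, which was lower. By the same rule 20.1% of all genes passed in either direction and 10% were lower. Trpv4 was also the 1 of the 8 whose groups did not overlap. Of all brain genes, 24.9% had groups that did not overlap, made up of 12% with the HS libraries lower and 12.9% with them higher. The count of 1 in 8 lies near these shares.

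**Figure D1:**
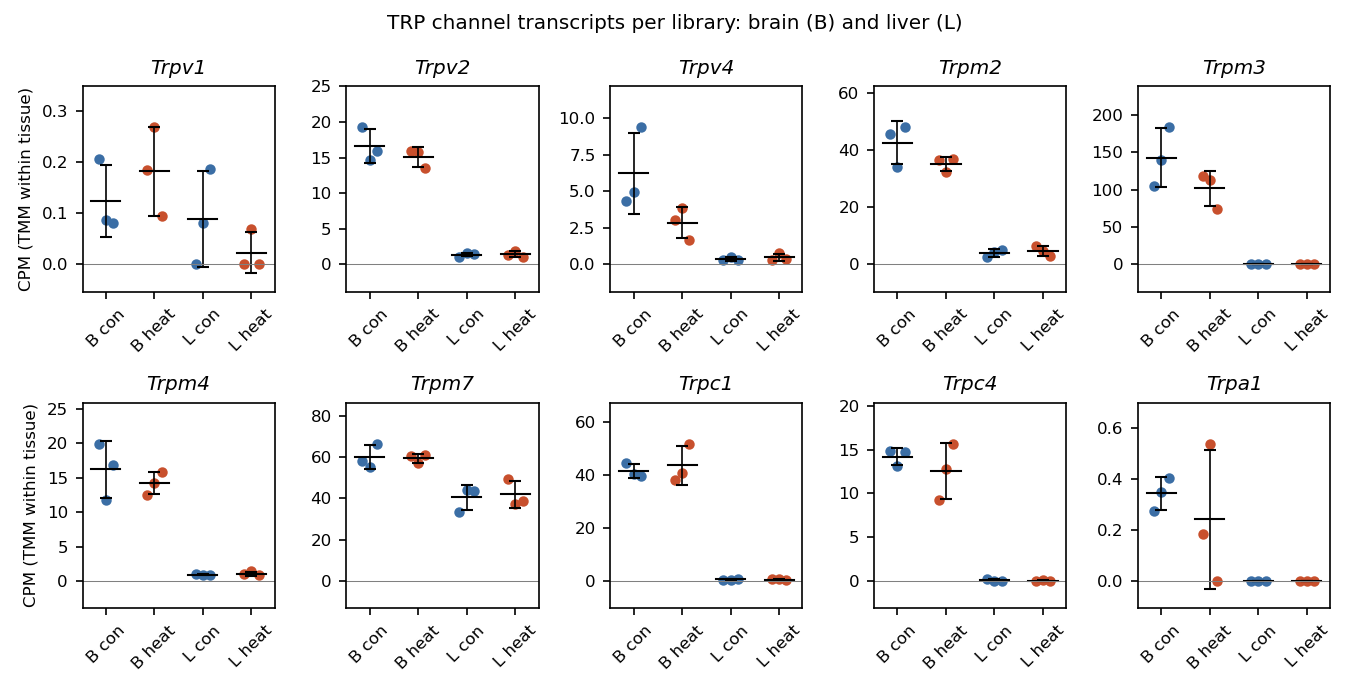
CPM (TMM within each tissue, linear axes that differ between panels) of each TRP channel gene in brain (B) and liver (L), for CO (con, blue) and HS (heat, red) libraries. Points are libraries, the bar is the mean and the whiskers 1 SD of 3 libraries. In the Trpv4 panel all HS brain points lie below all CO brain points. In liver the channels other than Trpm7 and Trpv1 lie near 0 on their axes, and the Trpv1 panel shows at most 3 counts per library. CPM was scaled within each tissue, so heights are not comparable between tissues.

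Trpv4, a warmth- and osmosensitive calcium channel on chromosome 5 from 114622152 to 114658421 of mm10, was counted at 63, 57 and 116 in the CO brains and at 33, 43 and 18 in the HS brains. In CPM this was 4.32, 4.97 and 9.39 in CO and 3.05, 3.85 and 1.70 after HS. CO replicate 3 stood well above the other libraries and HS replicate 3 below them, and the lowest CO library lay just above the highest HS library. The mean was 6.23 ± 2.76 CPM (SD, n = 3) in CO and 2.87 ± 1.09 CPM (SD, n = 3) after HS, 2.16-fold lower by the fitted value. The log2 fold change was -1.11 (standard error 0.38, 95% interval -1.96 to -0.26), and the edgeR quasi-likelihood adjusted p was 0.182. Without CO replicate 3 it was -0.69, and without HS replicate 3 it was -0.85.

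Trpm3, a channel that steroids and heat open, lies on chromosome 19 from 22139046 to 22995410 and was the channel with the most counts in brain. It had 1529, 1600 and 2265 counts in CO and 1277, 1257 and 786 after HS, or 104.8, 139.6 and 183.3 CPM against 117.9, 112.6 and 74.2 CPM. The groups overlapped, because CO replicate 1 lay below HS replicates 1 and 2. The log2 fold change was -0.49 (standard error 0.23, 95% interval -0.998 to 0.021), and the edgeR quasi-likelihood adjusted p was 0.263. It was -0.27 without CO replicate 3 and -0.31 without HS replicate 3, the same libraries that held the highest and the lowest Trpv4 value. Over the 6 brain libraries the log2 CPM of Trpv4 and Trpm3 had a Pearson r of 0.95, a description of libraries that both genes share. Trpm3 shares exon sequence with the antisense genes Gm27151 (277 bases) and C330002G04Rik (351 bases), and the use of strand in counting is not given in the sources used here, so reads of these genes cannot be told apart from it.

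Choroid plexus markers differed between the same brain libraries, as did endothelial and striatal markers, which are given below. The 16 choroid plexus markers include Ttr, the thyroxine carrier transthyretin, and Kl, the gene of klotho. They summed to 2274, 1858 and 3598 CPM in the CO brains and to 1090, 1649 and 542 CPM in the HS brains. None of the 16 was at 0 in any brain library, and CO replicate 3 was again the highest and HS replicate 3 the lowest. All 16 had a negative log2 fold change, against 7448 of all 14806 brain genes, with a median of -1.19. The groups did not overlap for 6 of them, all lower, against 12% of all brain genes. Kl had 41.6 ± 13.2 CPM (SD, n = 3) in CO and 15.5 ± 6.05 CPM (SD, n = 3) after HS, a log2 fold change of -1.42 (edgeR quasi-likelihood adjusted p = 0.170). A fit with the mean log2 CPM of these markers as a term was added after the values were seen. The log2 fold change of Trpv4 was then -0.061 (standard error 0.33) and that of Trpm3 was 0.093 (standard error 0.22). The marker mean was 3.94 to 4.93 in the CO brains and 2.50 to 3.79 in the HS brains. This fit therefore cannot separate marker level from treatment, and the marker list was chosen with earlier results of these data known. In bulk tissue, fewer cells of a type and less RNA per cell cannot be told apart.

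**Figure D2:**
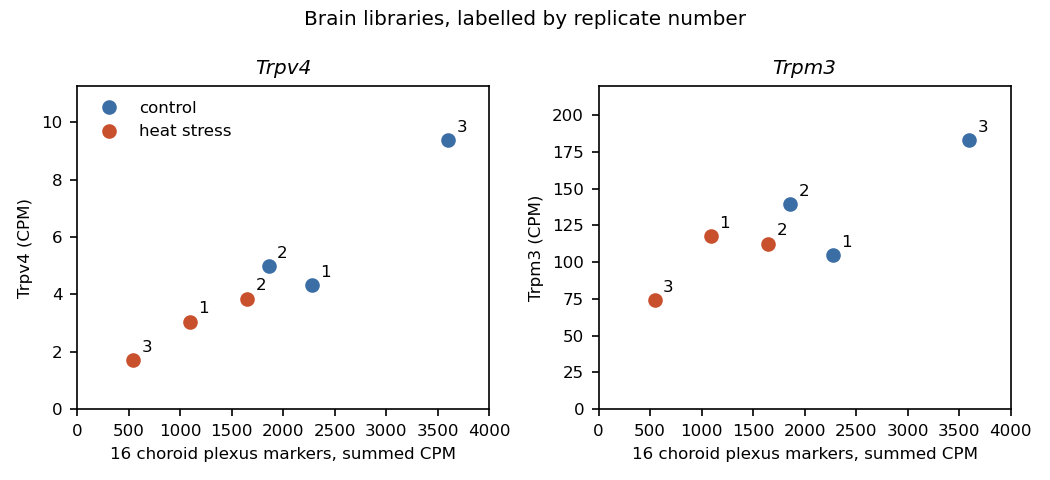
Brain libraries plotted by the summed CPM of 16 choroid plexus markers (x axis) and by the CPM of Trpv4 or Trpm3 (y axis), blue for CO and red for HS, with the replicate number beside each point. CO replicate 3 is highest and HS replicate 3 lowest on both axes of both panels.

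The promoters of Trpv4 and Trpm3 are shown because these channels had the most negative values in brain. RefSeq on GRCm38.p6 gave windows for 8 of the 10 genes and 11 windows in all, each with 250 bases before and 50 after a transcription start. They were searched for the paired heat shock elements GAANNTTC and TTCNNGAA, each of which reads the same on both strands. A match was found in 2 of the 11 windows, 1 of Trpv2 and 1 of Trpm3, and 15.1% of all 32851 windows of that length held at least 1. The OTX motif TAATCC, on either strand, was in 0 of the 11 and in 7.06% of all windows. The 250 bases before each start follow, on the strand of the gene, all in lower case because neither holds a heat shock element. Trpv4 is on the minus strand and Trpm3 on the plus strand. A second Trpm3 start lies inside the gene and is not printed.
Trpv4, chr5:114658422-114658671: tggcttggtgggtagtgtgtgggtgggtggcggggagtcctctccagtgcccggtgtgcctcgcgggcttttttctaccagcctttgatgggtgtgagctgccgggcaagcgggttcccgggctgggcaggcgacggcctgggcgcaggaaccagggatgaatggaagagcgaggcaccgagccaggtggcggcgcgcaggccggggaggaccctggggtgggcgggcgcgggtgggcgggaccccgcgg
Trpm3, first start, chr19:22138796-22139045: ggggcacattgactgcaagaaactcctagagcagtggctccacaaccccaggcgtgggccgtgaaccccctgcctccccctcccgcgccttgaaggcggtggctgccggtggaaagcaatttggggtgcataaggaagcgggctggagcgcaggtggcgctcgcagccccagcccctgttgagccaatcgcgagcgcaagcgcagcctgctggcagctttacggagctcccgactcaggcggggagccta
The Trpv4 window held 30 CpG sites and the Trpm3 windows 21 and 10, where the median over all windows was 7. In the second Trpm3 window GAAGGTTC began 23 bases before the start. In the Trpv2 window, with its start at the 3′ side of chr11:62575377-62575626, GAATCTTC began 91 and TTCTGGAA 150 bases before the start. A match in these letters is a description of the sequence only.

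The channels linked with immune cells had smaller differences. Trpm2, a channel opened by ADP-ribose and oxidative stress that also takes part in sensing warmth, had 45.7, 34.1 and 48.1 CPM in the CO brains and 36.6, 32.3 and 36.8 CPM in the HS brains. CO replicate 2 lay below 2 of the HS libraries, so the groups overlapped. The log2 fold change was -0.28 (standard error 0.15, 95% interval -0.60 to 0.052), and the edgeR quasi-likelihood adjusted p was 0.312. It was -0.42 without CO replicate 2 and -0.18 without CO replicate 3. Trpv2, a heat- and stretch-related channel of macrophages and neurons, had 19.3, 14.7 and 16.0 CPM in CO and 15.9, 15.9 and 13.5 CPM after HS. Its values overlapped as well, with a log2 fold change of -0.14 (95% interval -0.49 to 0.20) that was -0.022 without CO replicate 1 and -0.23 without CO replicate 2. The 13 markers of microglia and macrophages summed to 488 to 643 CPM in CO brains and to 540 to 615 CPM in HS brains. Single markers moved in both directions. Of the 11 tested, 2 were higher and 1 was lower in every HS brain, against 12.9% and 12% of all brain genes. The Kupffer cell genes Clec4f and Vsig4 were at 0 in every brain library.

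Trpm4, a sodium-conducting channel that calcium opens from the inside, had 19.95, 11.8 and 16.9 CPM in the CO brains and 12.6, 14.2 and 15.8 CPM in the HS brains. All 3 HS values lay within the range of the CO values, and the log2 fold change was -0.20 (95% interval -0.65 to 0.25). It was -0.38 without CO replicate 2 and -0.018 without CO replicate 1.

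Trpm7, the channel kinase, varied little in brain. It had 58.2, 54.9 and 66.4 CPM in CO and 60.3, 56.9 and 60.7 CPM after HS. The log2 fold change was -0.013 with a 95% interval of -0.26 to 0.24, and it was 0.066 without CO replicate 3 and 0.016 without HS replicate 2.

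The 2 canonical channels had fold changes of opposite sign, both with overlapping groups. Trpc1, a subunit that usually joins other TRPC channels, had 44.5, 40.1 and 39.5 CPM in the CO brains and 38.2, 40.7 and 51.7 CPM in the HS brains. HS replicate 3 was the highest, and without it the log2 fold change of 0.073 (95% interval -0.23 to 0.38) became -0.070. Trpc4, a channel that G proteins and phospholipase C open, had 14.8, 13.1 and 14.7 CPM in CO and 9.23, 12.8 and 15.7 CPM after HS. The HS libraries lay on both sides of the CO range, with a log2 fold change of -0.18 (95% interval -0.62 to 0.26), which was -0.0046 without HS replicate 1 and -0.37 without HS replicate 3.

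The 2 classical pain channels were almost uncounted in brain. Trpv1, on chromosome 11 from 73234292 to 73261242, had 3, 1 and 1 counts in CO and 2, 3 and 1 after HS. Every value was at or under 3 counts, so this depth could not show a difference. Trpa1, on chromosome 1 from 14872648 to 14918862, had 4, 4 and 5 counts in CO and 2, 6 and 0 after HS. The HS libraries again lay on both sides of the CO libraries, and neither gene had enough counts to be tested.

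**Figure D3:**
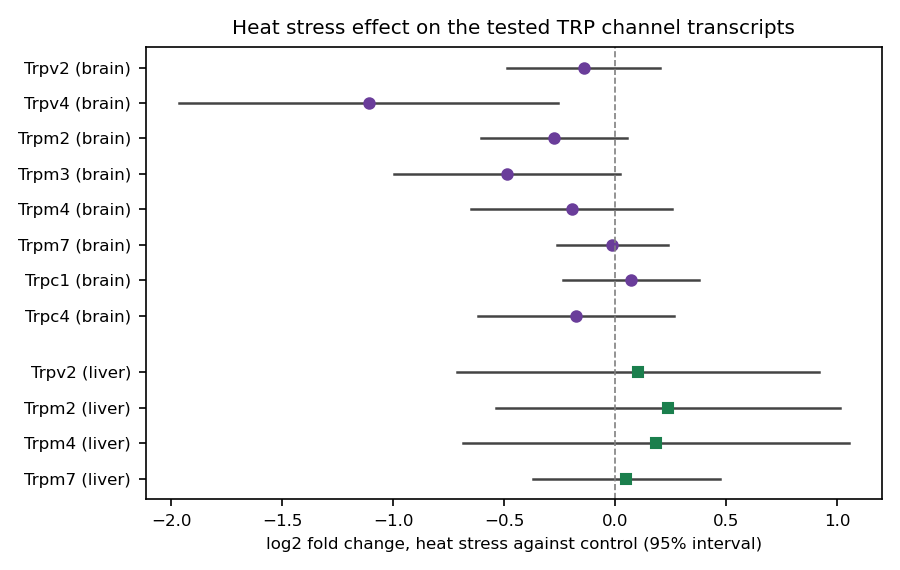
Log2 fold change of HS against CO (x axis) for the 8 channels tested in brain (circles) and the 4 tested in liver (squares), with lines for the 95% interval from edgeR's fit. The interval of Trpv4 in brain lies below 0, and the other 11 intervals include 0.

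In liver, 4 of the 10 channels had enough counts to be tested, and none passed at an adjusted or an unadjusted p-value under 0.05, where 0% and 5.84% of all 12296 genes did. DESeq2 called 63 genes, 0.553% of the 11397 with an adjusted value, and 0 of the 4 channels, with no adjusted value for Trpm4. None of the 4 had groups that did not overlap, against 11.1% of all genes. Trpm7 was the only channel with more than 100 counts per library. It had 518, 542 and 469 counts in CO and 664, 535 and 491 in HS, or 33.4, 44.2 and 43.7 CPM against 49.4, 37.3 and 38.7 CPM. HS replicate 1 was the highest and CO replicate 1 the lowest, while the other 4 libraries were mixed. The log2 fold change was 0.049 (95% interval -0.37 to 0.47), and the edgeR quasi-likelihood adjusted p was 0.988.

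Trpm2 had 39, 54 and 53 counts in the CO livers and 85, 65 and 38 in the HS livers. In CPM this was 2.52, 4.40 and 4.94 in CO and 6.33, 4.53 and 3.00 in HS. HS replicate 1 was the highest and CO replicate 1 the lowest, with HS replicate 3 next to it, and the groups overlapped (log2 fold change 0.24, 95% interval -0.54 to 1.01). It was -0.074 without HS replicate 1 and -0.025 without CO replicate 1. Macrophage markers were also highest in HS replicate 1, with 332 CPM, and ranged from 178 to 258 CPM in the other 5 livers. Their part in the Trpm2 value was not tested.

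Trpv2 had 17, 19 and 16 counts in CO and 18, 28 and 14 in HS liver, and Trpm4 had 16, 11 and 9 against 13, 20 and 10. For both the highest value was in HS replicate 2, which carried muscle transcripts. Their log2 fold changes were 0.10 (95% interval -0.71 to 0.92) and 0.18 (95% interval -0.68 to 1.05), and without that library they were -0.16 and -0.077. Without both libraries with muscle transcripts, the log2 fold changes were -0.32 for Trpv2, 0.0052 for Trpm4, -0.0094 for Trpm2 and -0.0085 for Trpm7.

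The remaining channels were scarce in liver and were not tested. Trpv4 had 5, 6 and 3 counts in CO and 4, 11 and 5 in HS, with the 11 in HS replicate 2. Trpc1 had 5, 6 and 9 against 9, 10 and 2, values that overlapped throughout. Trpm3 had 3, 0 and 1 against 1, 2 and 1, and Trpc4 had 3, 0 and 0 against 0, 1 and 0. For both the highest count was in CO replicate 1, the liver library that held Snap25. Trpv1 had 0, 1 and 2 counts against 0, 1 and 0, and Trpa1 had 0 in all 6 livers.

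Whether the heat effect differed between the tissues was tested in a fit of all 12 libraries. None of the channels tested there had an adjusted p-value under 0.05, where 0.00632% of 15824 genes had. For Trpv4 the heat effect in liver minus that in brain was 1.53 on the log2 scale (standard error 0.71, edgeR quasi-likelihood adjusted p = 0.517), with liver counts between 3 and 11. For the 4 channels tested in both tissues the difference was 0.25 for Trpv2, 0.52 for Trpm2, 0.36 for Trpm4 and 0.057 for Trpm7, each smaller than 2 standard errors.

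Levels of the channels were also compared between genes and between the tissues. Levels were set side by side as FPKM, the CPM on 1 scale over all 12 libraries divided by exon length in kilobases, with lengths from GENCODE M21. In CO brain, 8 of the 10 channels had a mean of 1 FPKM or more. Trpm3 led with 3.996 ± 1.12 FPKM (SD, n = 3), followed by Trpm7 with 3.62 ± 0.386 and Trpc1 with 3.53 ± 0.230, and these 3 did not differ beyond their spread. Trpv2 with 2.54 ± 0.368 and Trpm2 with 2.34 ± 0.426 FPKM came next and overlapped. Trpc4 with 1.21 ± 0.0910, Trpv4 with 1.05 ± 0.472 and Trpm4 with 1.03 ± 0.265 FPKM formed the next level, while Trpa1 at 0.0550 and Trpv1 at 0.0232 FPKM were close to nothing. With the length of the longest transcript in place of all exons, Trpm3 still had the highest mean, 7.94 ± 2.23 FPKM, but other places changed. Trpc1 at 6.21 ± 0.406 moved ahead of Trpm7 at 5.76 ± 0.614, and Trpm2 at 4.01 ± 0.729 ahead of Trpv2 at 3.10 ± 0.449. The libraries of each of these pairs overlapped, as did those of Trpm3 and Trpc1. Trpc4 at 2.80 then stood apart from Trpv4 at 1.32 FPKM. Trpm4 at 2.57 FPKM still overlapped with Trpv4, at 1.85 to 3.16 against 0.92 to 2.01 FPKM.

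In CO liver, Trpm7 stood alone with 5.24 ± 0.451 FPKM (SD, n = 3). Trpm2 at 0.462 ± 0.125 and Trpv2 at 0.450 ± 0.0517 FPKM did not differ beyond their spread, and the other 7 were at or below 0.131 FPKM. Trpm7 thus held 79.9% of the summed FPKM of the 10 channels in CO liver and 78.9% in HS liver, against 18.7% in CO brain and 21.2% in HS brain. Trpv4 held 5.30% ± 1.81 (SD, n = 3) of this sum in CO brain and 2.85% ± 1.07 (SD, n = 3) in HS brain.

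**Figure D4:**
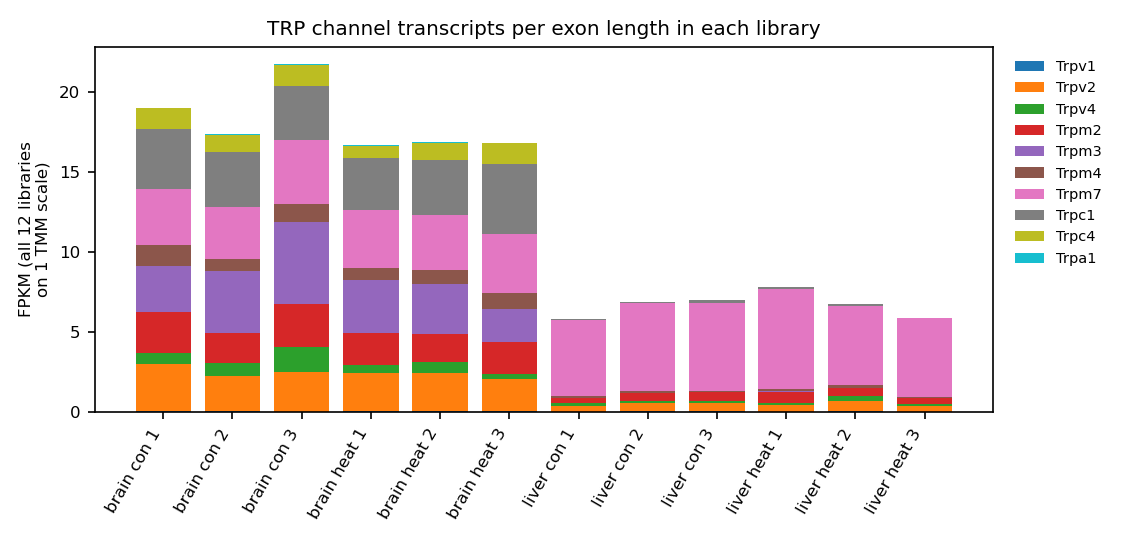
FPKM of the 10 TRP channel genes stacked for each of the 12 libraries (con, CO; heat, HS; number, replicate), on 1 scale over both tissues. Brain libraries are stacked from many channels, and liver libraries are mostly Trpm7 (79.9% of the CO mean).

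In a test of CO liver against CO brain, 8 channels had enough counts and 8 had an adjusted p-value under 0.05, as did 80.4% of all 15824 genes, which is the sum of 36.1% higher and 44.2% lower in liver. The other 7 were lower in liver than in brain, while Trpm7 was higher on the scale set by TMM over both tissues. Its log2 fold change was 0.53 (standard error 0.15, edgeR quasi-likelihood adjusted p = 0.00438), or 1.45-fold. In CPM scaled within each tissue, which is not made for comparing tissues, Trpm7 had the other direction. Its means there were 40.5 in CO liver and 59.8 in CO brain, so its sign depends on the scaling. Trpv2 was 5.64-fold, Trpm2 5.11-fold, Trpv4 7.81-fold, Trpm4 8.02-fold and Trpc1 36.1-fold lower in liver. Trpv4, Trpc1, Trpm3 and Trpc4 had enough counts through the brain libraries only and were too low to be tested within liver. The direction of their difference was therefore largely set by the count filter. In the CO livers Trpv4 had 5, 6 and 3 counts and Trpc1 had 5, 6 and 9. Trpm3 had 5394 counts over the CO brains and 4 over the CO livers, a ratio of 624 with a 95% counting interval of 244 to 2290, and Trpc4 had 548 and 3, a ratio of 84.5 with an interval of 28.8 to 411. In liver, 3 of the 4 Trpm3 counts and all 3 Trpc4 counts were in CO replicate 1, the library that held Snap25, so these intervals leave out the spread between libraries. Without that library, as computed after the values were seen, Trpm3 had 1 liver count and a ratio of 1560 with an interval of 280 to 61700, and Trpc4 had 0 and was at least 52.9-fold higher in brain against a floor of 3 counts over the group. Trpa1 had 13 counts in brain and 0 in liver, a ratio of 2 against the same floor, or 1.26 without that library. The floor covers counting error in liver only and the 13 brain counts were taken as exact, so these Trpa1 ratios are not lower limits.

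Other TRP genes were read from a list of 18. In brain 10 of them were tested, with a median log2 fold change of -0.23, and none passed at the adjusted p-value. Trpv3, the keratinocyte heat channel that neighbours Trpv1 on chromosome 11 from 73267388 to 73300363, had the smallest p-value of this list. It had 24, 22 and 30 counts in CO and 35, 35 and 35 in HS brain, and every HS library lay above every CO library. Its log2 fold change was 0.69 (standard error 0.26, edgeR quasi-likelihood adjusted p = 0.205), opposite in sign to that of Trpv4. Pkd2, a polycystin channel, was lower in every HS brain at -0.25, and Trpc6, a channel that diacylglycerol opens, was at -0.45 with overlapping groups. Of the 10, Trpv3 was thus the 1 gene higher in every HS brain and Pkd2 the 1 gene lower. These counts lie near the shares of all brain genes, 12.9% higher and 12% lower. In liver 2 of the 18 were tested, Pkd2 at -0.20 and Mcoln1, a lysosomal channel, at 0.21, both with overlapping groups.

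Genes that act with these channels were read as lists. Of 9 magnesium transport genes tested in brain, 8 had a negative log2 fold change, against 7448 of all 14806 genes. The median was -0.37. The groups did not overlap for 5 of the 9, all lower, against 12% of all brain genes. Mrs2, the mitochondrial magnesium channel, had the smallest p-value of this list, with 23.4 ± 3.17 CPM (SD, n = 3) in CO and 15.9 ± 1.92 CPM (SD, n = 3) after HS, a log2 fold change of -0.55 (edgeR quasi-likelihood adjusted p = 0.170). In liver the 9 had a median of 0.10. Magt1, which supports magnesium uptake, was lower in every HS liver (log2 fold change -0.66), and 1 other gene of this list was higher in every one. Groups did not overlap for 11.1% of all liver genes. Trpm7 itself was at -0.013 in brain and 0.049 in liver, as given above.

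Of 12 genes of phospholipase C and the inositol trisphosphate receptors, 10 had a negative log2 fold change in brain, with a median of -0.32. This sign was held by 7448 of all 14806 brain genes. The groups did not overlap for 2 of the 12, both lower, near the 12% of all brain genes. Plcb3, a phospholipase C that G proteins activate, had 21.6 ± 1.08 CPM (SD, n = 3) in CO and 16.5 ± 1.76 CPM (SD, n = 3) after HS (log2 fold change -0.39, edgeR quasi-likelihood adjusted p = 0.178). In liver 10 of the 12 were tested with a median of 0.18. Itpr3, a calcium release channel, had the smallest p-value of this list there, with a log2 fold change of 0.92. The 6 genes of store-operated calcium entry had medians of -0.086 in brain and 0.040 in liver. Orai1, the pore subunit, was lower in every HS brain (log2 fold change -0.51), as were 12% of all brain genes. Orai2, a related pore subunit with 3 to 22 counts, was higher in every HS liver (log2 fold change 1.01), and 1 other gene of this list was lower in every one. Of all liver genes, 11.1% had groups that did not overlap.

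The 13 listed partners and regulators had medians of 0.060 over 12 tested in brain and -0.087 over 9 tested in liver. Calm2, a calmodulin gene, was higher in every HS brain (log2 fold change 0.49, edgeR quasi-likelihood adjusted p = 0.188), as were 12.9% of all brain genes. Cav1, the gene of caveolin, had the smallest p-value of the list in liver, with overlapping groups and a log2 fold change of 1.02. Reads of Calm2 could be shared with other calmodulin genes or their pseudogenes. Of 7 genes of ADP-ribose metabolism, which makes and removes the ligand of Trpm2, 6 were tested in each tissue with medians of 0.010 and -0.037. Parp1, which makes poly-ADP-ribose, had the smallest p-value in brain (log2 fold change -0.36), and Nudt5, which hydrolyses ADP-ribose, had it in liver (-0.32). Of the 6 other thermosensitive or mechanosensitive channels, 5 had a negative log2 fold change in brain, against 7448 of all 14806 genes. Their median was -0.35. Kcnk2, a heat-activated potassium channel, had the smallest p-value and was the positive one at 0.46, while Piezo1, a mechanosensitive channel, was at -0.65 and Kcnk4, a relative of Kcnk2, at -0.64, all with overlapping groups. In liver 4 of the 6 were tested with a median of -0.13, and Kcnk10, another relative, was at -0.96. None of the genes in these lists had an adjusted p-value under 0.05 in either tissue.

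Heat shock and cell type lists describe the samples in which these values were measured. The 8 heat shock genes had a median log2 fold change of -0.38 in brain and 7 tested of them -0.47 in liver. In brain the medians were -0.99 for endothelium, 1.12 for striatal neurons, -0.30 for septum, thalamus and hypothalamus, -0.20 for astrocytes, -0.081 for neurons, 0.089 for oligodendrocytes, and 0.039 for microglia and macrophages. Endothelial markers summed to 186 to 325 CPM in the CO brains and to 132 to 159 CPM in the HS brains. The groups did not overlap for 6 of the 8 endothelial markers tested, all lower, against 12% of all brain genes. For the striatal list this held for 4 of 9, all higher, against 12.9%. In liver the medians were 0.36 for microglia and macrophages, 0.25 for endothelium, 0.27 for stellate cells and fibroblasts and 0.21 for hepatocytes. The part of any of these in the TRP channel values was not tested.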

How the data were processed

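The 12 libraries were grouped by tissue and treatment as GEO's labels give them. The authors deposited raw read counts for 25239 gene symbols, with 1 column per library. Their methods describe both an HISAT2 2.2.1 and featureCounts (Subread 2.0.1) pipeline on mm10, after Trimmomatic 0.39, and a Tophat2 and HTSeq pipeline, and which one made the counts, the annotation and the use of strand are not given in the sources used here. Reads shared between genes may therefore have been split or dropped. The authors' tables of fold changes and p-values were not used.

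Counts were analysed in R 4.3.3 with edgeR 4.0.16: TMM, filterByExpr (minimum count 10, minimum total 15), robust quasi-likelihood test, Benjamini-Hochberg adjustment, and a threshold of 0.05. Each tissue was fitted alone, and tissue differences in 1 fit of 4 groups. Standard errors came from the fold change and the F statistic of each gene. FPKM used merged exons of GENCODE M21. DESeq2 1.42.0, other normalizations and filters, a replicate block and leaving out libraries were alternatives. Deviations of control brain and liver libraries of the same number had correlations of 0.35, 0.34 and 0.11. The labels name no animal, so whether such libraries came from the same mouse is not known. The edgeR fits were tested on simulated data.

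The channels and the gene lists were chosen with earlier results of these data known. Genes named beside the 10 channels are the 1 with the smallest p-value of each list and tissue, the 3 most correlated with each of 3 channels, and the markers Ttr, Kl, Alb and Snap25. Mcoln1, Pkd2 in brain, Trpc6, Piezo1, Kcnk4, Clec4f, Vsig4 and the antisense genes were named after their values or positions were seen.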

Additional observations from a re-analysis of the deposited data

How the results depend on the processing

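The number of TRP channels with an adjusted p-value under 0.05 stayed at 0 in brain, in liver and for the difference between the tissues under each alternative run in which an adjusted p-value was given. The number of all genes called moved from 0 in brain to 540 with DESeq2 on 6 libraries and 9 with DESeq2 on 12. In liver it moved from 0 to 2 with upper quartile normalization, 8 with no filter, 63 and 163 with DESeq2 on 6 and on 12 libraries, 14 with all 12 libraries in 1 edgeR fit, 6 with a term for columns named 2nd and 81 without the 2 libraries with muscle transcripts, and leaving out 1 library gave 0 to 25, the 25 without control replicate 1. For the difference between tissues it was 1, and it was 0 with RLE, 43 with DESeq2 and 0 to 4 when 1 library was left out. The cause of these moves was not tested.

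Deviations of same-numbered control and heat stress libraries had correlations of -0.29, 0.19 and -0.20 in brain and -0.58, -0.51 and -0.088 in liver. For heat stress brain and liver the correlations were 0.050, -0.20 and 0.038. These values cannot tell whether same-numbered libraries came from the same mouse. With the replicate block, 1 gene was called in liver and 0 genes for the difference between tissues, and Trpv4 in brain was -1.07. In the control liver against control brain test, the block left 8 of 8 channels called and Trpm7 at 0.54, on the TMM scale over both tissues. Trpv4, Trpc1, Trpm3 and Trpc4 entered that test through brain counts only.

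The Trpv4 log2 fold change in brain was -1.38 to -0.69 when 1 library was left out. DESeq2 on the 6 brain libraries gave it no adjusted p-value, because of its own filter on low counts, and an unadjusted p-value of 0.00582. Signs turned elsewhere. Without the 2 muscle libraries the liver values were -0.32 for Trpv2, -0.0094 for Trpm2 and -0.0085 for Trpm7, and Trpm7 was -0.025 with the term for 2nd. The choroid plexus term was chosen after seeing the data and cannot be separated from treatment. With this term, brain values were 0.093 for Trpm3, 0.061 for Trpm7 and -0.18 for Trpc1. Leaving out 1 library gave -0.075 to 0.066 for Trpm7 and -0.070 to 0.15 for Trpc1 in brain. In liver it gave -0.16 to 0.25 for Trpv2, -0.074 to 0.45 for Trpm2, -0.077 to 0.34 for Trpm4 and -0.11 to 0.13 for Trpm7. For the difference between tissues it gave -0.046 to 0.41 for Trpv2 and -0.072 to 0.15 for Trpm7.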

Other observations

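For the 3 channels with the highest mean FPKM in brain, the genes with the most similar log2 CPM over the 6 brain libraries were listed as a description. The points share libraries, tissue composition and depth. For Trpc1 these were Cnga4 (Pearson r 0.995), Csad (0.988) and Ogfod2 (0.987), and 21 of 14806 genes lay above 0.95. For Trpm7 they were Fam214b (0.995), Tha1 (0.993) and Fancc (0.988), with 26 genes above 0.95. For Trpm3 they were Scml2 (0.995), Sgms2 (0.988) and Rd3 (0.986), with 33 genes above 0.95.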
